A study of Homo sapiens with 12 samples.

Results

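MIA PaCa-2 cells exposed for 48 h to 40 mM L-glutamine together with 0.5 µM gemcitabine were compared with cells at 2 mM L-glutamine without the drug. MIA PaCa-2 is an established human pancreatic carcinoma line, and its genotype is labelled WT in every sample. The comparison takes 6 of the 12 RNA-seq libraries of the series, 3 a side, and 12789 of the 15090 genes in the deposited table, namely those with a level of 1 RPM (the unit of reads scaled to library size that the authors used) or more in at least 3 of the 12 libraries. All 4 groups were kept in RPMI medium that lacked glutamine until a stated dose of L-glutamine was added back. The baseline group had 2 mM and no drug, and the combined group had 40 mM and 0.5 µM gemcitabine. The 2 remaining groups, with 40 mM and no drug (glutamine alone) and with 2 mM and 0.5 µM (drug alone), are used to show which agent each difference came with. The design calls the 3 libraries of a group biological triplicates, and a control that matches the osmotic load of 40 mM glutamine was not analysed here.

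Gemcitabine is a deoxycytidine analogue. Cells take it up through nucleoside transporters, phosphorylate it with deoxycytidine kinase, and build it into DNA, where it stops chain growth, while its diphosphate blocks ribonucleotide reductase. Glutamine gives nitrogen to purines, pyrimidines and amino sugars and, as glutamate, carbon to the tricarboxylic acid cycle, and pancreatic cancer cells often lean on it heavily. Cells with stalled DNA synthesis can switch on interferon-stimulated genes, which are otherwise known as the response to viral nucleic acids.

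The carcinoma markers KRT8, KRT18, KRT19, VIM and MKI67 were all expressed, with a summed level of 6973 to 6990 RPM at baseline and 6423 to 6466 RPM under the combined treatment. Of 7 leukocyte markers 2 were measured, with a sum of at most 1.15 RPM in any of these 6 libraries, and 1 of 4 endothelial markers was measured, at no more than 0.64 RPM. Of 7 fibroblast markers 3 were measured, and COL1A2 made up most of their sum of 663 to 785 RPM. Libraries held 22797503 to 27369377 reads at baseline and 23488621 to 24612122 under the combined treatment. With the authors' scaling factor per library, values summed to 971668 to 974406 RPM in the 3 combined libraries and to at least 998053 RPM in the other 9. Scaling by plain library totals gives every library the same sum. Genes below the level needed for testing took 0.108% to 0.110% of reads in the combined libraries and at most 0.0969% elsewhere. The part of these differences between libraries in the results was not tested. In bulk RNA, fewer cells of a type and less RNA per cell cannot be told apart.

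The combined treatment raised interferon-stimulated genes, genes of DNA replication and mitosis and part of the unfolded protein response. It lowered ribosomal protein genes, enzymes of the tricarboxylic acid cycle, redox genes and several genes of adhesion and lipid synthesis. In all, 2395 genes were higher and 2716 lower than at baseline, or 40.0% of the genes tested (18.7% higher and 21.2% lower, limma with Benjamini-Hochberg adjustment at 0.05). Most differences were small, with a median size of 0.27 on the log2 scale among the genes called, and a change of at least 2-fold was seen in 44 rises and 5 falls. Those falls were UNC93B1, TRPV2, PMEPA1, L1CAM and CCM2L. TRPV2, PMEPA1 and CCM2L did not meet the rule for the largest falls, a level at or above the median and no group overlap. Scaling by plain library totals in place of the authors' factors gave 3557 higher and 1849 lower, so that 65.8% of calls were higher against 46.86%, with the median of all genes moved to 0.06. Groups did not overlap for 48.3% of genes. Against the same baseline libraries, glutamine alone changed 17.5% of genes (1076 or 8.41% higher and 1166 or 9.12% lower) and the drug alone 34.6% (2237 higher and 2185 lower). Between combined and glutamine-alone libraries 30.3% were called. Because all 3 comparisons share those libraries, their values are set side by side below and their likeness is not tested.

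**Figure D1:**
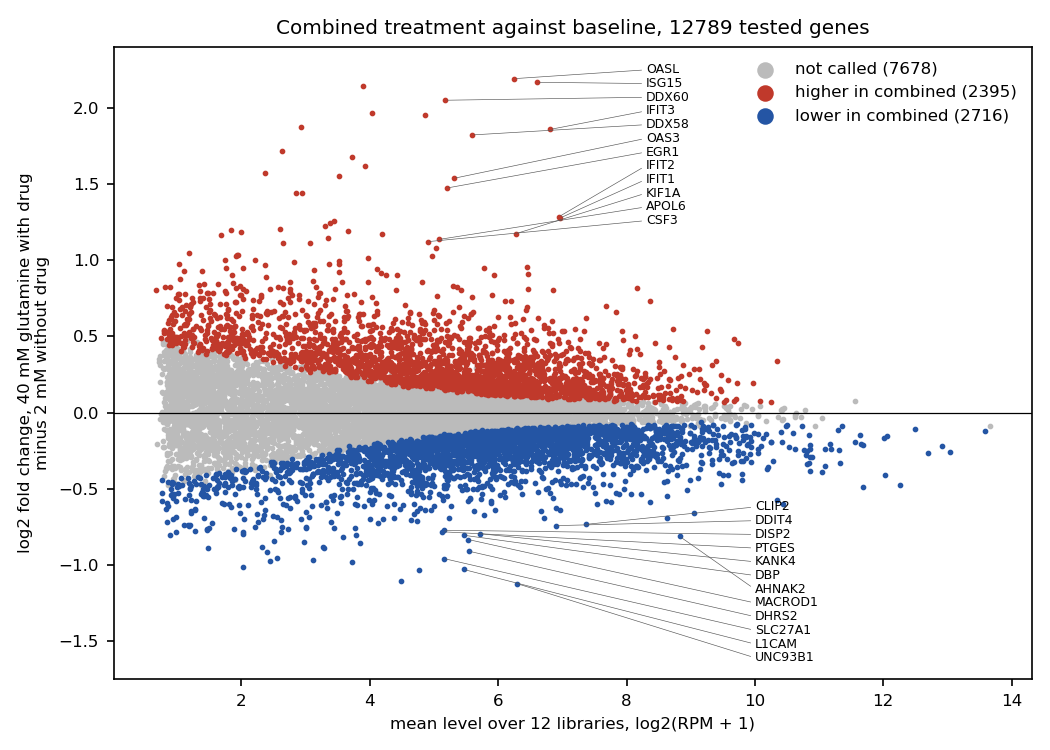
Each point is 1 of 12789 tested genes, with its mean level over 12 libraries in log2(RPM + 1) on the x axis and the log2 fold change of the combined treatment against baseline on the y axis. Red points (2395) rose, blue points (2716) fell and grey points were not called by limma. The 12 largest rises and 12 largest falls among well-measured genes are named: the rises reach 2.19 for OASL and the falls −1.12 for UNC93B1.

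Interferon-stimulated genes gave 8 of the 12 largest rises among genes at or above the median level. Log2 fold changes below are for the combined treatment against baseline, with the standard error, on the log2(RPM + 1) scale and with 3 libraries per group, unless another comparison is named. Of 47 genes tested from a list of 55, 36 rose and 5 fell, with a list median of 0.66, where 18.7% of all tested genes rose. The list had 36 rises and 5 falls with the drug alone (median 0.40) and 12 rises and 7 falls with glutamine alone (median 0.04). Shared reads among near-identical family members, such as the IFITM genes, cannot be resolved from the table.

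ISG15, a ubiquitin-like protein that is joined to other proteins during antiviral defence, was at 38.6, 36.4 and 36.9 RPM in the baseline libraries and at 168, 165 and 180.1 RPM in the combined libraries. All combined values lay more than 4-fold above all baseline values, and the log2 fold change was 2.17 ± 0.050 (limma adjusted p = 3.16e-27). With glutamine alone ISG15 was at 45.7, 38.2 and 42.6 RPM and with the drug alone at 139, 136 and 132 RPM. The drug step was therefore the larger one, and the combined libraries still lay above all drug-alone libraries (0.34 ± 0.050 between them, adjusted p = 6.84e-06).

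OASL, a relative of the oligoadenylate synthetases, was at 29.3, 24.7 and 29.1 RPM at baseline and 127, 126 and 136 RPM under the combined treatment (2.19 ± 0.053, adjusted p = 1.13e-26). DDX60, a helicase that aids the sensing of viral RNA, went from 15.6, 15.5 and 14.2 RPM to 66.7, 65.2 and 65.1 RPM (2.05 ± 0.082). These groups did not overlap, and for DDX60 the combined difference was more than the sum of both single differences, 0.14 with glutamine (not called) and 1.45 with the drug. Its departure from that sum was 0.46 ± 0.116 (limma adjusted p = 0.0264).

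IFIT1, which binds viral RNA that lacks the usual cap methylation, was at 77.7, 76.8 and 82.7 RPM at baseline and 80.2, 81.2 and 74.5 RPM with glutamine alone, and these libraries overlapped. It reached 149, 140.2 and 147 RPM with the drug alone and 201, 183 and 195 RPM under the combined treatment. The combined libraries were the highest of all 12. Thus glutamine had no detectable difference without the drug (−0.01 ± 0.042, adjusted p = 0.933) and 0.41 ± 0.042 with it (adjusted p = 1.37e-08), and the departure was 0.41 ± 0.060 (adjusted p = 0.000112). Among the interferon-stimulated genes, departures above the sum were called for DDX60, IFIT1, IFI6 (0.40 ± 0.107) and IFITM1 (0.32 ± 0.065), and 1 below the sum for TRIM25 (−0.19 ± 0.047).

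IFIT3, a partner of IFIT1, rose by 1.86 ± 0.042 and IFIT2 by 1.28 ± 0.042. DDX58, which encodes the RNA sensor RIG-I, rose by 1.82 ± 0.054 and the synthetase OAS3 by 1.54 ± 0.064. Outside the list, APOL6, an apolipoprotein L gene that interferon induces, rose by 1.14 ± 0.077. The membrane proteins IFITM1, IFITM2 and IFITM3, which block viral entry, went the other way, at −0.65 ± 0.046, −0.49 ± 0.034 and −0.24 ± 0.045, as did the ubiquitin ligase RNF213 (−0.45 ± 0.054) and SHISA5 (−0.17 ± 0.036). These 5 are all of the list's falls and were named after their values were seen.

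Stretches of the upstream promoter are shown for 5 of the strongest rises because they hold the interferon-stimulated response element that ISGF3 and IRF factors bind. The element was searched as GAAANNGAAA on both strands within 250 bases before the annotated start, and matches are in capitals. Sequences are from RefSeq on GRCh38.p14, on the gene's own strand. The ISG15 stretch lies at chr1:1013366-1013417 (plus strand, 131 to 80 bases before the start), IFIT3 at chr10:89327823-89327902 (plus, 174 to 95), IFIT1 at chr10:89392489-89392547 (plus, 134 to 76), DDX60 at chr4:168318778-168318858 (minus, 106 to 26) and OAS3 at chr12:112938313-112938402 (plus, 161 to 72).
ISG15: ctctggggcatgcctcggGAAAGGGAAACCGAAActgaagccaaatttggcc
IFIT3: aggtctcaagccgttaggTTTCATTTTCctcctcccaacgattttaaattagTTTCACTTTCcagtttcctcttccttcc
IFIT1: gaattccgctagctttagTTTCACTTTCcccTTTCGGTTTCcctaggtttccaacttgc
DDX60: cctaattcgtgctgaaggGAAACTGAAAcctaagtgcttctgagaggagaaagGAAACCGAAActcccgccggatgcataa
OAS3: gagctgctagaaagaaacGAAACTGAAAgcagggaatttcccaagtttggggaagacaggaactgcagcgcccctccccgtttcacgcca
In ISG15 the 2 matches overlap, and in IFIT3 and IFIT1 both read as TTTC on the shown strand because the element lies on the other strand. Of 39 interferon-stimulated genes with a promoter in the table, 20 held a match (51.3%), against 2.2% of 10053 tested genes and 3.07% of 27305 promoters in all. Among the genes that rose by 2-fold or more, 13 of 34 held one (38.2%). A match describes the letters only.

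Genes that present peptides on MHC class I, which interferon also induces, rose with them. Of 14 tested, 12 rose and 0 fell (median 0.38), against 11 rises with the drug alone and 5 with glutamine alone. HLA-B was at 65.5, 60.5 and 60.5 RPM at baseline and 121, 109 and 124 RPM under the combined treatment, without overlap (0.91 ± 0.046). The light chain B2M rose by 0.57 ± 0.079, and the peptide-loading chaperones CALR and PDIA3 by 0.34 ± 0.027 and 0.28 ± 0.030. Counts of HLA genes depend on how the authors' counting split reads between alleles and copies. In the NF-kappaB and cytokine list, 8 of 17 rose and 2 fell. CSF3, the granulocyte growth factor, rose by 1.12 ± 0.065, LIF by 0.77 ± 0.067 and the chemokine CXCL8 by 0.71 ± 0.072, while the inhibitor NFKBIA rose by 0.36 ± 0.041.

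Genes of the G1/S transition and DNA replication rose almost without exception. Of 64 tested genes, 62 rose and 1 fell under the combined treatment (median 0.38). With the drug alone 61 rose (median 0.43), and with glutamine alone 37 rose and 1 fell (median 0.13). Between combined and drug-alone libraries 17 of the genes were lower and 3 higher, where 13.0% of all tested genes were lower and 8.62% higher in that step. Quantile normalization gave 7 lower and 4 higher there, and plain library totals 6 and 3. POLD2, a subunit of polymerase delta, was the gene that fell (−0.26 ± 0.035), and the glycosylase gene UNG was not called.

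CDC6, which loads the replicative helicase, was at 57.0, 56.1 and 52.6 RPM at baseline, 74.0, 80.4 and 84.1 RPM with glutamine alone, 101, 107 and 103 RPM with the drug alone and 113, 109.6 and 102 RPM under the combined treatment. Each agent raised it on its own, but the combined and drug-alone libraries overlapped. Its combined log2 fold change was 0.96 ± 0.048, where the single differences of 0.52 and 0.90 add up to more (departure −0.46 ± 0.067, limma adjusted p = 0.000119). The helicase subunit MCM4 rose by 0.55 ± 0.029, MCM3 by 0.48 ± 0.030 and MCM5 by 0.55 ± 0.037, with departures of −0.27 ± 0.042, −0.24 ± 0.043 and −0.38 ± 0.053. PCNA, the sliding clamp of the replication fork, was at 98.1, 100.2 and 100.3 RPM at baseline, 155, 162 and 161 RPM with the drug alone and 147, 144 and 143 RPM under the combined treatment. Its combined libraries all lay above baseline and below the drug-alone libraries (0.54 ± 0.036, departure −0.34 ± 0.050, adjusted p = 0.000119).

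In 23 of the 64 replication genes the combined difference was called smaller than the sum of the single ones and in 0 larger, where 2.20% of all tested genes departed from the sum in either direction and 1.47% were below it. The list's median departure was −0.17. Between 16 and 24 of the genes were called below the sum under each alternative normalization, filter or model and without each library in turn. E2F1, CCNE2, MCM10 and RRM2, all induced as cells enter S phase, had combined rises of 0.73, 0.97, 0.76 and 0.74.

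Promoter stretches of MCM3 and PCNA are shown because both genes rose and hold a form of the site bound by E2F factors, which drive genes at G1/S. The forms searched were TTTCCCGC, TTTGGCGC, TTTCGCGC and TTTGCCGC, on both strands within 250 bases before the start, with matches in capitals. The MCM3 stretch lies at chr6:52284891-52284934 (minus strand, 192 to 149 bases before the start) and the PCNA stretch at chr20:5126656-5126699 (minus strand, 77 to 34), both on GRCh38.p14 from RefSeq and on the gene's strand.
MCM3: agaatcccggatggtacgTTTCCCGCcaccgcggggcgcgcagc
PCNA: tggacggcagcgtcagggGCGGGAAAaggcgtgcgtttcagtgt
Of 53 replication genes with a promoter in the table, 17 held such a site (32.1%), against 4.67% of tested genes and 2.79% of all promoters. In the mitosis list it was 3 of 51 (5.88%).

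Genes of G2 and mitosis also rose, and here the combined libraries lay above the drug-alone libraries in part of the list. Of 59 tested, 56 rose and 1 fell under the combined treatment (median 0.32), 50 rose and 1 fell with the drug alone (median 0.26), and 4 rose and 14 fell with glutamine alone (median −0.03). In the step from drug alone to combined, 17 were higher and 0 lower, where 8.62% of all tested genes were higher and 13.0% lower. Plain library totals gave 28 and 0 in the list, with 2017 of all 12789 tested genes higher and 941 lower. HMMR, a spindle protein and hyaluronan receptor, was at 87.4, 87.8 and 87.6 RPM at baseline and 81.1, 83.0 and 82.1 RPM with glutamine alone. It was at 108, 120.2 and 114 RPM with the drug alone and 131, 134 and 129 RPM under the combined treatment. All combined libraries lay above all drug-alone libraries, and those lay above both groups without the drug (0.58 ± 0.039, departure 0.29 ± 0.056, limma adjusted p = 0.00249).

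FOXM1, the transcription factor of mitotic genes, rose by 0.66 ± 0.033, the topoisomerase TOP2A by 0.48 ± 0.029 and the spindle regulator GTSE1 by 0.59 ± 0.044. Departures above the sum were called for 10 mitosis genes and below it for 0, where 0.727% of all tested genes lay above. The 10 include the cyclins CCNB1 (0.21 ± 0.046) and CCNB2 (0.26 ± 0.056), the kinase AURKA (0.24 ± 0.055) and the securin gene PTTG1 (0.23 ± 0.054). Without replicate 1 of the drug-alone group 5 were called, and with quantile normalization 15, which are the lowest and highest counts of all alternatives. The phosphatase CDC25B was the 1 gene that fell (−0.12 ± 0.028), a call that ended with quantile normalization (−0.05, adjusted p = 0.136), plain library totals (−0.06, adjusted p = 0.0741) and removal of each library's trend with level, length and GC content, called trend removal below (−0.05, adjusted p = 0.176).

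DNA repair genes rose in part. Of 59 tested, 39 rose and 5 fell (median 0.29), with 3 falls under plain library totals and without baseline replicate 1. The histone variant H2AX, which is phosphorylated at broken DNA, was at 155, 152 and 155 RPM at baseline and 252, 246 and 257 RPM under the combined treatment (0.70 ± 0.034), with 0.44 ± 0.034 for glutamine alone and 0.39 ± 0.034 for the drug alone. Combined and baseline libraries did not overlap, and both single agents raised it. CLSPN, the adaptor of the ATR checkpoint, rose by 0.81 ± 0.047, the nuclease EXO1 by 0.83 ± 0.062 and FANCI of the Fanconi pathway by 0.63 ± 0.045. XPA and ERCC2 of nucleotide excision repair fell by 0.34 ± 0.087 and 0.31 ± 0.045.

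Targets of p53 showed no common direction, with 13 higher and 6 lower of 33. The apoptosis inducer PMAIP1 was at 7.10, 6.85 and 6.48 RPM at baseline and 21.6, 23.7 and 23.6 RPM under the combined treatment (1.62 ± 0.088). The combined libraries were all more than 3-fold above baseline, at a level where counts are modest. CDKN1A, a brake on the cell cycle, rose by 0.67 ± 0.145 from a mean of 5.05 RPM, although glutamine alone had lowered it (−0.49 ± 0.145). BTG2, PHLDA3 and the kinase PLK2 fell by 0.70 ± 0.067, 0.60 ± 0.082 and 0.37 ± 0.029.

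Among genes that take up, activate or clear gemcitabine, 10 of 29 rose and 5 fell under the combined treatment, where 40.0% of all tested genes were called. Plain library totals gave 3 falls, as did leaving out baseline replicate 2, combined replicate 2 or combined replicate 3. The subunit RRM2 of ribonucleotide reductase, which the drug inhibits, was at 229, 237 and 245 RPM at baseline, 275, 285 and 283 RPM with glutamine alone, 395, 406 and 404 RPM with the drug alone and 401, 402 and 383 RPM combined. Combined and drug-alone libraries overlapped, and both lay above the others (0.74 ± 0.031, departure −0.27 ± 0.044, limma adjusted p = 0.000386). The partner subunit RRM1 rose by 0.30 ± 0.032, the thymidine kinase TK1 by 0.46 ± 0.042 and the CTP synthase CTPS1, which takes its nitrogen from glutamine, by 0.41 ± 0.041. RRM2, RRM1 and TK1 are also members of the replication list.

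SLC29A1, the nucleoside carrier ENT1 that imports gemcitabine, was at 100.2, 103 and 93.0 RPM at baseline, 93.6, 92.6 and 96.0 RPM with glutamine alone, 128, 135 and 128 RPM with the drug alone and 105, 108 and 100 RPM combined. The drug-alone libraries were the highest, and the combined libraries lay below all of them and overlapped baseline (0.08 ± 0.041, limma adjusted p = 0.138), with a departure of −0.26 ± 0.058 (adjusted p = 0.012). Plain library totals gave 0.14 (adjusted p = 0.00675) for the combined difference and removal of the trend with level, length and GC content 0.11 (adjusted p = 0.0262). DCK, the kinase that activates the drug, was at 21.5, 24.6 and 23.5 RPM at baseline and 25.5, 28.9 and 30.7 RPM combined (0.28 ± 0.082, adjusted p = 0.007). That call ended without baseline replicate 1 (0.22, adjusted p = 0.0528) and without combined replicate 3 (0.22, adjusted p = 0.0587). The deaminase CDA, which inactivates the drug, had −0.38 ± 0.180 from a mean of 2.20 RPM and was not called, but was with quantile normalization (−0.45, adjusted p = 0.0464). The carrier SLC29A2 fell by 0.39 ± 0.084, SAMHD1, which cleaves deoxynucleotides, rose by 0.34 ± 0.046, and the nucleotide kinase CMPK1 had 0.03 ± 0.031.

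**Figure D2:**
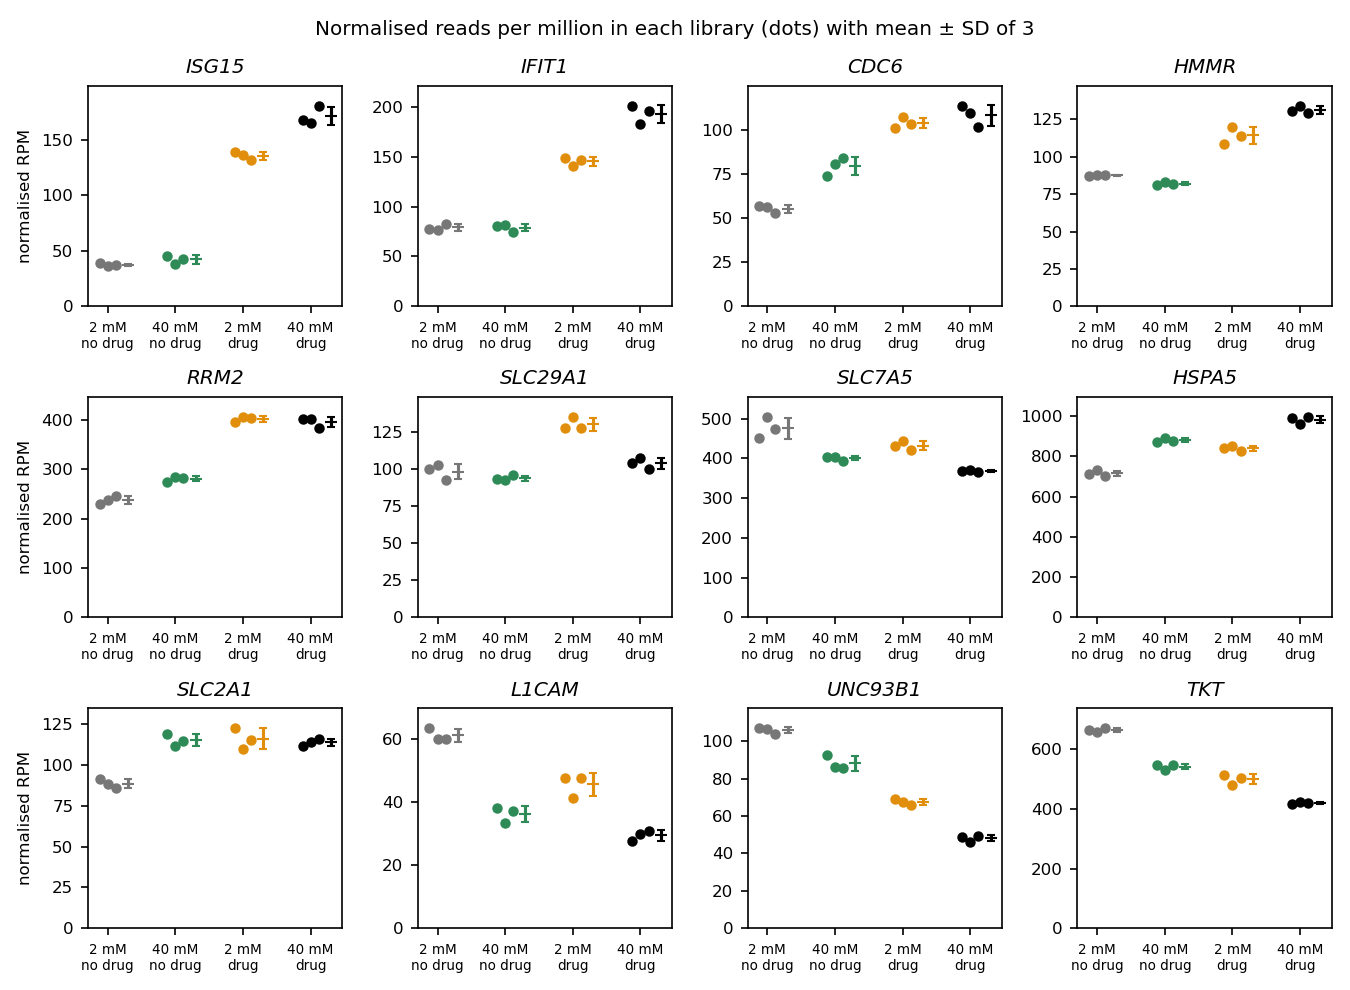
Dots give the normalised RPM of 12 genes in each of the 12 libraries, grouped by glutamine (2 or 40 mM) and drug (0.5 µM gemcitabine or none), with the mean ± SD of 3 beside them. The y axes start at 0 and differ between genes. ISG15, IFIT1 and HMMR are highest with both agents, CDC6 and RRM2 are level with the drug alone, SLC29A1 is highest with the drug alone, and L1CAM, UNC93B1 and TKT are lowest with both.

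Amino acid transport genes were called about as often as all tested genes. Of 22 tested, 3 rose and 7 fell, or 45.5% called against 40.0% of all genes (median −0.08, against −0.0022 over all tested genes), and plain library totals gave 5 and 5. SLC7A5, the exchanger of large neutral amino acids for glutamine, was at 451, 504 and 474 RPM at baseline and 369, 371 and 365 RPM combined (−0.37 ± 0.032, limma adjusted p = 3.09e-11). The combined libraries were the lowest of all 12, with −0.25 ± 0.032 for glutamine alone and −0.14 ± 0.032 for the drug alone. Its partner chain SLC3A2 had 0.03 ± 0.039 and was not called. SLC38A2, a sodium-coupled glutamine importer that amino acid starvation induces, fell by 0.31 ± 0.027 with 0.02 for glutamine alone and −0.29 for the drug. SLC1A4 rose by 0.98 ± 0.105 from a mean of 6.11 RPM, and SLC43A1 fell by 0.52 ± 0.086.

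Enzymes that handle glutamine and glutamate were split, with 6 higher and 10 lower of 32 (12 and 9 with plain library totals), where 18.7% of all tested genes rose and 21.2% fell, so the rises are near that background. GLUD1, which turns glutamate into 2-oxoglutarate, was at 319, 321 and 316 RPM at baseline, 304, 316 and 309 RPM with glutamine alone, 260.5, 258 and 264 RPM with the drug alone and 244, 258 and 243 RPM combined. The drug-alone and combined libraries overlapped each other and lay below all libraries without the drug (−0.36 ± 0.030). PYCR1 of proline synthesis fell by 0.43 ± 0.036, while the aminotransferase GOT1 rose by 0.30 ± 0.045. In the list of ATF4 targets, which respond to amino acid shortage and other stress, 10 rose and 11 fell of 29. WARS1, a tRNA synthetase that interferon also induces, rose by 0.53 ± 0.028, and DDIT4, an inhibitor of mTORC1, fell by 0.74 ± 0.055. CASTOR1, an arginine sensor of the same pathway, fell by 0.86 ± 0.097 from a mean of 18.2 RPM.

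Genes of the unfolded protein response, which adds chaperones to the endoplasmic reticulum, rose in part. Of 26 genes tested, 16 rose and 0 fell (median 0.20), against 12 and 1 with glutamine alone and 12 and 2 with the drug alone. HSPA5, the chaperone BiP, was at 712, 731 and 703 RPM at baseline, 872, 890.1 and 875 RPM with glutamine alone, 842, 849 and 825 RPM with the drug alone and 989, 963 and 995 RPM combined. Every treated library lay above baseline and the combined libraries were highest (0.46 ± 0.026, limma adjusted p = 9e-16). MANF, a secreted protein of this response, rose by 0.68 ± 0.072. SDF2L1 was the 1 gene of the list with a called departure (−0.42 ± 0.105). Cytosolic heat shock genes leaned the other way, with 1 higher and 10 lower of 21, but quantile normalization gave 4 and 4 and plain library totals 3 and 3.

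Glycolysis genes rose in part with each agent alone and were split with both. Of 24 tested genes, 10 rose and 1 fell with glutamine alone, 12 rose and 2 fell with the drug alone, and 8 rose and 5 fell under the combined treatment (medians 0.12, 0.13 and 0.02). The combined counts became 12 and 2 with quantile normalization and 14 and 2 once each library's dependence on level, length and GC content was taken out. SLC2A1, the glucose carrier GLUT1, was at 91.3, 88.4 and 85.9 RPM at baseline, 119, 112 and 115 RPM with glutamine alone, 122, 109.7 and 115 RPM with the drug alone and 111, 114 and 116 RPM combined. The 3 treated groups overlapped one another above baseline (0.36 ± 0.041, departure −0.40 ± 0.058, limma adjusted p = 0.000112).

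The combined difference was called below the sum of the single ones for 13 of the 24 glycolysis genes and above it for 0 (median departure −0.24), where 1.47% of all tested genes lay below. Across the alternatives and without each library in turn, 9 to 15 were called. PFKFB4, a regulator of the pathway's committed step, had single differences of 0.58 and 0.90 and a combined one of 0.65, a departure of −0.83 ± 0.129. PDK1, which keeps pyruvate out of the mitochondrion, had 0.38, 0.51 and 0.31 (departure −0.57 ± 0.085). The glycolytic enzymes ALDOC and PGK1 had departures of −0.74 ± 0.203 and −0.34 ± 0.055, and the lactate dehydrogenase LDHA −0.27 ± 0.037. SLC2A3, another glucose carrier, fell by 0.69 ± 0.093. Of 16 hypoxia targets, 8 rose and 1 fell, among them EGLN1, the oxygen-sensing hydroxylase, which rose by 0.34 ± 0.043, and ADM, which fell by 0.66 ± 0.125.

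Most ribosomal protein genes and most enzymes of the tricarboxylic acid cycle were lower. Of 80 cytosolic ribosomal protein genes, 1 rose and 66 fell (median −0.22), against 47 falls with the drug alone and 22 with glutamine alone, and 51 to 69 fell under the alternatives other than leaving out 1 library. The list median was −0.12 with quantile normalization and −0.13 with trend removal. RPL5 was at 1310.5, 1314 and 1343 RPM at baseline and 1039, 1009.9 and 1042 RPM combined (−0.36 ± 0.026), without overlap. RPL4 fell by 0.33 ± 0.026, and these genes took 6.01% to 6.28% of reads in the combined libraries and 6.89% to 7.01% at baseline. Reads of ribosomal protein genes can be shared with their many pseudogenes.

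Enzymes of the tricarboxylic acid cycle had 2 rises and 18 falls among 25 (median −0.17), against 13 falls with the drug alone and 4 with glutamine alone. SUCLG2, a subunit of succinyl-CoA ligase, fell by 0.32 ± 0.041, SDHA and SDHC of succinate dehydrogenase by 0.23 ± 0.031 and 0.23 ± 0.038, and the malate dehydrogenase MDH2 by 0.18 ± 0.030. Nuclear genes of the respiratory chain had 1 rise and 39 falls among 73 (median −0.12), and 4 rises and 25 falls with plain library totals. The 13 mitochondrially encoded genes gave no stable direction, with 0 rises and 5 falls as deposited, 4 and 0 with quantile normalization and 1 and 1 with plain totals.

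MYC, which drives ribosome production, was at 237, 243 and 235 RPM at baseline, 225, 219 and 223 RPM with glutamine alone, 222, 232 and 229.9 RPM with the drug alone and 185, 189 and 189 RPM combined. The combined libraries were the lowest (−0.35 ± 0.031, departure −0.18 ± 0.044, limma adjusted p = 0.0213). In the list of MYC targets and ribosome biogenesis, 30 of 49 rose with the drug alone and 15 fell with glutamine alone, and under the combined treatment 14 rose and 17 fell (20 and 11 with plain totals). The rises numbered 9 without baseline replicate 3 and 7 without combined replicate 2, and without baseline replicate 2 the counts were 13 and 12. NPM1, the nucleolar chaperone, fell by 0.38 ± 0.026. Between combined and drug alone, 32 of these genes were lower and 0 higher, where 21.6% of all genes were called in that step, and plain totals gave 25 and 0.

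Many redox and lipid genes fell. Of 26 targets of NRF2, the regulator of the oxidative stress response, 5 rose and 15 fell (median −0.18). Over all tested genes 18.7% rose and 21.2% fell. TKT, transketolase of the pentose phosphate pathway, was at 664, 659 and 671 RPM at baseline, 546, 531 and 547 RPM with glutamine alone, 515, 481 and 505 RPM with the drug alone and 418, 424 and 420.3 RPM combined. No group overlapped another, in the order combined, drug alone, glutamine alone and baseline from lowest to highest (−0.66 ± 0.028, limma adjusted p = 2.39e-19). The ferritin light chain FTL fell by 0.49 ± 0.027, the peroxiredoxin PRDX1 by 0.51 ± 0.032 and the aldo-keto reductase AKR1C1 by 0.69 ± 0.041, whose close relatives can share its reads. AKR1B1, which makes the osmolyte sorbitol, rose by 1.67 ± 0.104 from a mean of 5.60 to 20.1 RPM, with 0.26 for glutamine alone (not called) and 1.36 for the drug alone.

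Of 19 tested genes that make fatty acids, 1 was higher and 9 were lower, or 52.6% called against 40.0% of all tested genes. Plain library totals gave 4 and 8. The desaturase SCD was at 1011, 962 and 1006 RPM at baseline, 1118, 1121 and 1063 RPM with glutamine alone and 750.3, 712 and 729 RPM combined, so that it rose with glutamine alone (0.15 ± 0.030) and fell under the combined treatment (−0.44 ± 0.030). FASN, fatty acid synthase, fell by 0.34 ± 0.028, and SREBF1, which controls both, by 0.28 ± 0.031. Cholesterol genes had 2 rises and 10 falls among 23, or 52.2% called, and 3 and 8 with plain library totals. DHCR7, an enzyme of the last steps, fell by 0.29 ± 0.048.

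The largest falls among well-measured genes were of several kinds. L1CAM, a cell adhesion molecule, was at 63.5, 60.0 and 59.8 RPM at baseline, 38.1, 33.5 and 37.1 RPM with glutamine alone, 47.7, 41.4 and 47.7 RPM with the drug alone and 27.6, 29.8 and 30.8 RPM combined. Combined libraries were the lowest of all (−1.03 ± 0.061, limma adjusted p = 2.04e-15), and the larger single step was that of glutamine. UNC93B1, which carries Toll-like receptors to endosomes, went from 107, 107 and 104 RPM to 48.9, 46.2 and 49.2 RPM without overlap (−1.12 ± 0.044), and here the larger single step was that of the drug (−0.64 against −0.26). DHRS2, a short-chain dehydrogenase, fell by 0.91 ± 0.060, with −0.90 for glutamine alone and −0.10 (not called) for the drug alone. Further falls by that rule were SLC27A1, a fatty acid carrier (−0.96), MACROD1 (−0.83), AHNAK2 (−0.81), the clock output factor DBP (−0.81), KANK4 (−0.80), PTGES of prostaglandin synthesis (−0.78), DISP2 (−0.77) and CLIP2 (−0.73).

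In the epithelial list 1 gene rose and 7 fell of 17 (median −0.08), where 21.2% of all tested genes fell. Plain library totals gave 2 and 4, and trend removal a median of 9.2e-05. The integrin ITGB4 fell by 0.47 ± 0.028, the keratin KRT19 by 0.50 ± 0.035 and the tight junction gene CLDN4 by 0.47 ± 0.048, against −0.73 with glutamine alone (combined minus glutamine alone 0.26 ± 0.048, departure 0.40 ± 0.067). Targets of YAP and TAZ had 2 rises and 9 falls among 16, with the receptor kinase AXL at −0.40 ± 0.033 and AMOTL2 at −0.44 ± 0.036. EGR1, an immediate-early transcription factor, was at 19.5, 21.7 and 18.6 RPM at baseline and 58.2, 56.0 and 56.9 RPM combined (1.47 ± 0.074). Its list of immediate-early and MAPK feedback genes had 13 rises and 7 falls among 33. The kinesin KIF1A, which carries synaptic vesicle precursors, rose by 1.17 ± 0.046.

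**Figure D3:**
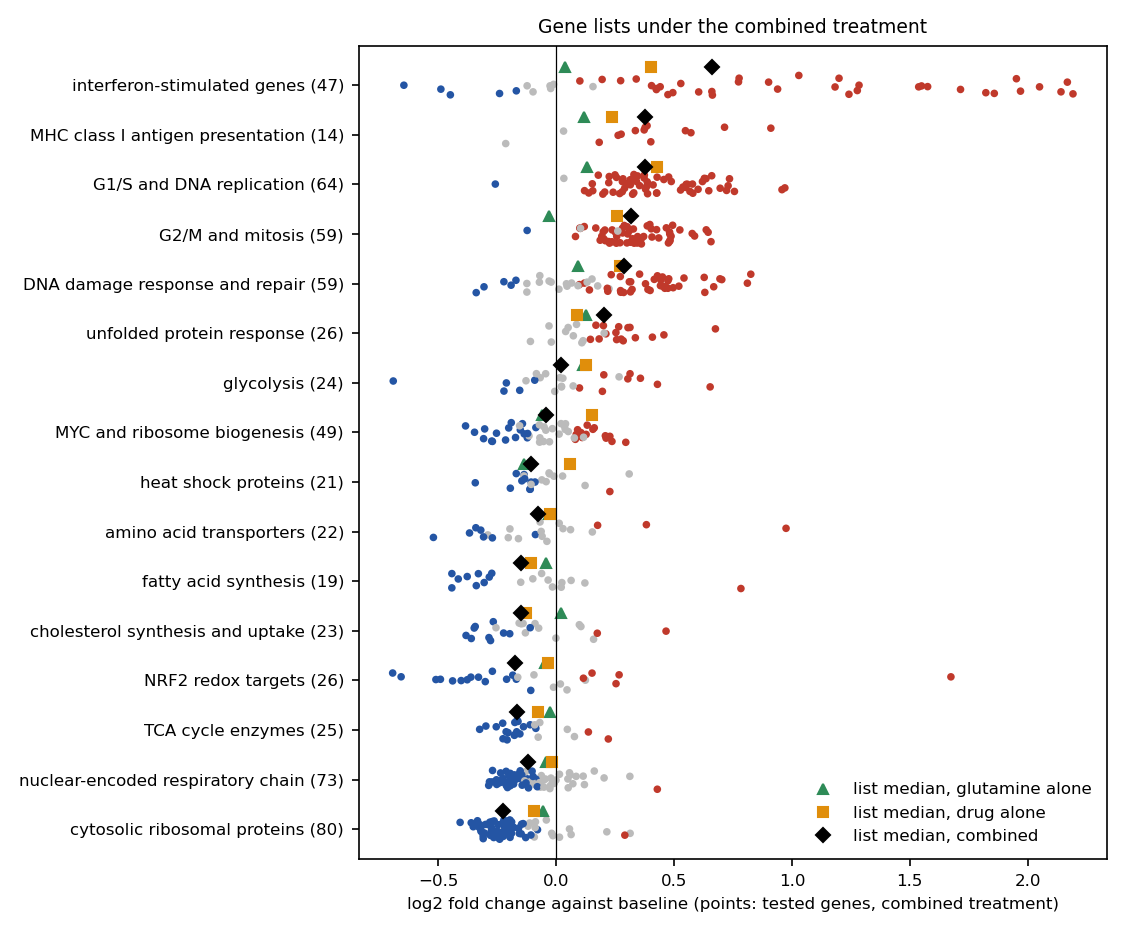
Points are tested genes of 16 lists (number tested in brackets) by log2 fold change of the combined treatment against baseline, red where higher, blue where lower and grey where not called by limma. Above each list, a diamond marks its median for the combined treatment, a square that for the drug alone and a triangle that for glutamine alone. Interferon-stimulated genes have the highest combined median (0.66) and ribosomal protein genes the lowest of these lists (−0.22) with the deposited scaling. With quantile normalization the ribosomal median is −0.12, above those of fatty acid synthesis, NRF2 targets, cholesterol synthesis and uptake, and TCA cycle enzymes.

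For 393 genes the single agents went in opposite directions: 164 were higher with glutamine and lower with the drug, and 229 the reverse. Under the combined treatment 123 of the 393 were called in the drug's direction, 56 in that of glutamine and 214 were not called. The 8 well-measured genes with the largest opposite changes were PLAUR, CCN1, FSCN1, TGM2, PTX3, KRT18, ETV4 and ZBTB1. PLAUR, the urokinase receptor, was at 44.1, 42.2 and 45.6 RPM at baseline, 31.1, 33.4 and 26.9 RPM with glutamine alone, 70.3, 72.6 and 71.8 RPM with the drug alone and 57.2, 58.9 and 55.8 RPM combined. All combined libraries lay between baseline and drug alone (0.38 ± 0.058, limma adjusted p = 2.74e-06). FSCN1, an actin-bundling protein, and CCN1, a matrix protein that YAP induces, likewise rose, by 0.50 ± 0.056 and 0.28 ± 0.051.

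TGM2, transglutaminase 2, was at 516, 546 and 516 RPM at baseline, 368, 381 and 376 RPM with glutamine alone, 777, 766 and 744 RPM with the drug alone and 547, 561 and 542 RPM combined. Its opposite single differences of −0.49 and 0.54 left a combined difference of 0.06 ± 0.029, which was not called (adjusted p = 0.0719). With quantile normalization it was 0.14 and with plain library totals 0.13, both called. PTX3, a secreted pattern recognition protein, had 0.02 ± 0.045, ETV4 0.16 ± 0.077 and ZBTB1 −0.0040 ± 0.059, and none of these 3 was called. ETV4 was called higher with plain library totals (0.22), with trend removal (0.19), without baseline replicate 2 (0.26) and without combined replicate 3 (0.25). ZBTB1 was the only one of the 8 that glutamine raised and the drug lowered. KRT18, a keratin, fell by 0.14 ± 0.035, a call that ended with quantile normalization and with plain library totals.

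**Figure D4:**
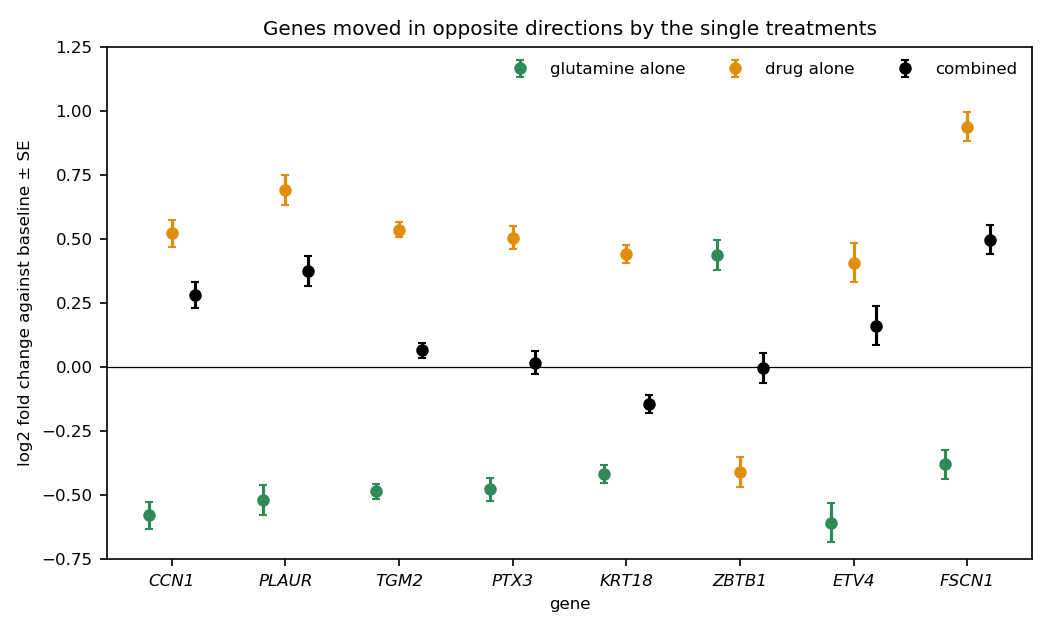
Log2 fold change against baseline ± SE (3 libraries per group) for the 8 genes with the largest opposite single differences, with glutamine alone in green, the drug alone in orange and the combined treatment in black. In each gene the combined value lies between the single ones. For TGM2, PTX3 and ZBTB1 it lies within 0.07 of 0.

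A further 1470 genes were called under the combined treatment and by neither single agent, 652 higher and 818 lower. A departure from the sum was called for 27 of these 1470. PABPC1L, a poly(A)-binding protein, was at 28.9, 22.0 and 34.2 RPM at baseline, 25.7, 26.9 and 26.8 RPM with glutamine alone, 29.0, 31.1 and 28.2 RPM with the drug alone and 35.9, 39.9 and 39.3 RPM combined. The combined libraries stood above the other 9 (0.44 ± 0.088, departure 0.44 ± 0.124, limma adjusted p = 0.0494). The other 7 of the largest such differences had no called departure, so that a difference called only with both agents is not shown to exceed the sum. They were FADS3 (−0.42), the centromere gene CENPX (−0.38), MYDGF (−0.37), SNUPN of snRNP import (0.37), GTPBP2 (0.36), ARID3A (−0.35) and CCDC85B (−0.35).

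At the other end, 72 genes rose and 137 fell in all 4 single steps, that is with each agent alone and on adding each agent to the other. The rises with the largest smallest step were DDX58, KIF1A, IFIT3, OAS3, H2AX, SORT1, OASL and RBBP8. SORT1, a sorting receptor, was at 32.1, 33.7 and 29.2 RPM at baseline, 36.3, 36.7 and 41.4 RPM with glutamine alone, 39.3, 43.6 and 41.3 RPM with the drug alone and 55.7, 55.8 and 56.3 RPM combined (0.80 ± 0.060). RBBP8, which encodes the end-resection factor CtIP, rose by 0.62 ± 0.052. The falls were L1CAM, SLC27A1, DISP2, UNC93B1, NOTCH1, TKT, SH3PXD2A and QTRT1. NOTCH1, a signalling receptor, was at 162, 144 and 153 RPM at baseline, 131, 127 and 118 RPM with glutamine alone, 123, 115 and 115 RPM with the drug alone and 101, 96.5 and 96.4 RPM combined (−0.64 ± 0.043). SH3PXD2A of invadopodia fell by 0.61 ± 0.064 and QTRT1, a tRNA-modifying enzyme, by 0.57 ± 0.055.

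Departure from the sum of the single differences was called for 281 genes, 93 above and 188 below it, or 2.20% of those tested. The balance turned with quantile normalization (116 above and 96 below), plain library totals (139 and 97) and trend removal (122 and 108). The count fell to 155, 157 and 180 without replicates 1, 2 and 3 of drug alone, to 165 without baseline replicate 1, to 165 without replicate 3 of glutamine alone and to 174 without combined replicate 1. This is the smallest of the counts, and the median standard error of a departure was 0.10 against 0.07 for a difference from baseline. SLC20A1, a phosphate importer, had the smallest adjusted p of the genes at or above the median level. It was at 265, 259.6 and 270.0 RPM at baseline, 208, 221 and 215 RPM with glutamine alone, 246, 236 and 237 RPM with the drug alone and 261, 265 and 259 RPM combined. Each agent lowered it alone, and the combined libraries overlapped baseline (departure 0.43 ± 0.045, limma adjusted p = 4.66e-07). The splicing factor SRSF6 rose by 0.35 and 0.50 with the single agents and by 0.46 with both (departure −0.40 ± 0.048, adjusted p = 7.26e-06). PKM, the pyruvate kinase gene, had a departure of −0.27 ± 0.036, and MCM5, LDHA, IFIT1, SLC2A1 and PCNA, described above, complete the 8 genes with the smallest adjusted p.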

How the data were processed

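RNA was sequenced from 12 cultures of MIA PaCa-2 cells, 3 in each of 4 groups. The deposited table holds log2 values that the authors made from RPM (reads scaled to library size) times a factor per library, plus 1, per the file headers and the values. The sources used here do not name the aligner or the genome build. Dividing out the steps between low values gave whole reads for 100% of values (tolerance 0.05), and depths of 21723094 to 32811746 reads.

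Genes with 1 RPM or more in 3 libraries were tested on the deposited log2 values with limma 3.58.1 in R 4.3.3. The fit used 4 group means, moderated standard errors with a trend, two-sided tests and Benjamini-Hochberg adjustment at 0.05 over all tested genes. The pseudocount of 1 shrinks fold changes of low genes. The scripts were tested on simulated data. Promoters and motifs were read with Python 3.11.15 and pandas 2.3.3, and figures drawn with matplotlib 3.10.9.

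Genes were named by rule: the 12 largest rises and falls at or above the median level without overlap between groups, the smallest adjusted p-values in each of 44 gene lists, genes of drug and glutamine handling, the 8 smallest adjusted p-values of the departure, and 8 each of opposed, combined-only and stepwise genes. The genes and lists were chosen with earlier results of these data known. Outside the rule, the members counted as exceptions in a list (IFITM1 to IFITM3, RNF213, SHISA5, POLD2, UNG, CDC25B, TRPV2, PMEPA1 and CCM2L) and the further examples IFI6, TRIM25, E2F1, CCNE2, MCM10, CCNB1, CCNB2, AURKA, PTTG1, XPA, ERCC2, PHLDA3, SDF2L1, ALDOC, PGK1, PDK1 and ADM were chosen after their values were seen. Some genes that the rule names are not reported here. The alternatives tried were other scalings, filters, pseudocounts and models, a replicate block, removal of the trend with level, length and GC content (chosen after seeing the data), and leaving out each library. Nothing beyond the label of biological triplicates says how far the cultures were separate, so p-values measure the spread between these samples.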

Additional observations from a re-analysis of the deposited data

Results flagged for a closer look

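For 43 of the genes named in the text, limma called the combined difference from baseline different from the sum of the 2 single differences. The departure itself was tested. This is the test of whether the change with one agent differs by the presence of the other, and the values below are departures on the log2 scale with 3 libraries per group. Several calls lay close to the threshold, with limma adjusted p of 0.0494 for PABPC1L, 0.0483 for SGK1, 0.0445 for ALDOC and 0.0423 for IFI6. Over all tested genes the 281 departures called became 155 without replicate 1 of drug alone. What lies behind a departure was not tested.

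Genes of replication and nucleotide supply lay below the sum. The values were −0.46 for CDC6, −0.38 for MCM5, −0.38 for MCM10, −0.34 for PCNA, −0.27 for MCM4, −0.24 for MCM3 and −0.24 for UNG. RRM2 had −0.27, the thymidine kinase TK1 −0.33, the CTP synthase CTPS1 −0.24 and the carrier SLC29A1 −0.26. Genes of glycolysis and low oxygen were also below it, at −0.83 for PFKFB4, −0.74 for ALDOC, −0.57 for PDK1, −0.40 for SLC2A1, −0.34 for PGK1, −0.27 for PKM, −0.27 for LDHA and −0.25 for EGLN1.

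Genes of mitosis lay above the sum, at 0.29 for HMMR, 0.26 for CCNB2, 0.24 for AURKA, 0.23 for PTTG1 and 0.21 for CCNB1. Interferon-stimulated genes above it were DDX60 (0.46), IFIT1 (0.41), IFI6 (0.40) and IFITM1 (0.32), while TRIM25 lay below (−0.19). Also above it were PABPC1L (0.44), SAT1 (0.43), SLC20A1 (0.43), CLDN4 (0.40), CCN1 (0.34) and ITGB4 (0.17). The rest were below it: SDF2L1 (−0.42), SRSF6 (−0.40), SRSF2 (−0.29), DHCR7 (−0.32), ID1 (−0.20), MYC (−0.18), SGK1 (−0.18) and the keratin KRT8 (−0.14).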

How the results depend on the processing

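Of 174 genes named in the text, 152 kept the direction of their combined difference and its side of the threshold in all 23 alternatives. Unless stated, the cause of a change was not tested.

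Scaling by plain library totals gave 2017 higher and 941 lower genes for combined against drug alone. Departures below the sum numbered 96 with quantile normalization, 97 with plain totals and 108 once each library's dependence on level, length and GC content was removed, against 188. That removal was chosen after seeing the data, and too few tRNA synthetase and histone genes had a length and GC value (3 of 20 and 1 of 23) for it to bear on those lists. The share of calls that were higher moved by over 10 percentage points with plain totals to 61.18% for glutamine alone (from 47.99%), 62.88% for combined against glutamine alone (from 46.64%), 68.19% for combined against drug alone (from 39.86%) and 58.9% for departures (from 33.1%). Quantile normalization gave 50.14% and trend removal 50.1% for combined against drug alone, and for departures quantile normalization gave 54.72% and trend removal 53.04%.

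Leaving out 1 library at a time, which also leaves fewer samples, gave 4440 to 5258 calls for the combined treatment (2039 to 2462 higher, 2386 to 2796 lower). The ranges were 2079 to 2929 for combined against drug alone (767 to 1171 and 1291 to 1758), 3241 to 3930 for combined against glutamine alone (1501 to 1827 and 1740 to 2103), 3539 to 4586 for drug alone (1836 to 2335 and 1703 to 2251) and 1685 to 2283 for glutamine alone (795 to 1093 and 881 to 1190). For the departure they were 155 to 366 (47 to 103 above and 104 to 263 below the sum).

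The sign of small combined differences changed. Quantile normalization gave 0.074 for PKM, 0.041 for SLC20A1, 0.020 for TRIM25 and 0.011 for VIM. Plain totals gave 0.046 for SLC20A1, 0.051 for TRIM25 and 0.057 for ZBTB1. Trend removal gave 9.2e-05 for KRT18, 0.11 for PKM, −0.0072 for PTX3, 0.013 for SLC20A1 and 0.015 for TRIM25. PKM, called lower as deposited, was called higher with quantile normalization (limma adjusted p = 0.0337) and with trend removal (limma adjusted p = 0.000265). KRT8 and LDHA were not called as deposited. Both were called higher with quantile normalization (0.23 and 0.14), plain totals (0.077 and 0.078) and trend removal (0.20 and 0.14). Leaving out 1 library at a time spanned 0 for ALDOC (−0.0098 to 0.42), KRT8 (−0.0035 to 0.035), LDHA (−0.0072 to 0.031), PTX3 (−0.0100 to 0.032), TRIM25 (−0.030 to 0.0096), UNG (−0.017 to 0.092) and ZBTB1 (−0.035 to 0.048), with 1 of baseline replicates 1 to 3 or combined replicate 2 left out at the reversed end.

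With a replicate block in the fit 5112 genes were called (2396 higher and 2716 lower) against 5111 without it. Same-numbered libraries deviated from their group means with correlations of −0.077 to 0.048, and differently numbered ones with −0.080 to 0.092. Between baseline and combined libraries the same-numbered values were 0.033, 0.041 and 0.033. The differently numbered ones there were −0.033 to −0.0015. Such small values cannot decide whether the numbers pair the cultures, which the labels do not state.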

Other observations

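Other gene groups gave further values for the combined treatment, beginning with those that break down or fold proteins. Of 30 proteasome subunit genes, 17 rose and 0 fell with the drug alone, and 0 rose and 5 fell with glutamine alone. With both agents 6 rose and 3 fell, or 30% called against 40.0% of all tested genes. Plain totals gave 10 and 3, and 6 fell without combined replicate 3. Between combined and drug-alone libraries 19 were lower and 0 higher, although quantile normalization gave 9 lower and plain library totals 6. In that step 13.0% of all tested genes were lower and 8.62% higher. PSMC5, an ATPase of the proteasome cap, rose by 0.21 ± 0.038, and the cap subunit PSMD3 fell by 0.15 ± 0.030. All 8 genes of the cytosolic chaperonin, which folds actin and tubulin, were lower in the combined than in the drug-alone libraries (7 with plain totals and 3 with quantile normalization). TCP1 of this complex was at 414, 437 and 444 RPM at baseline, 382, 404 and 373 RPM with glutamine alone, 459.6, 471 and 464 RPM with the drug alone and 394, 394 and 396 RPM combined. Its combined libraries overlapped those of glutamine alone and lay below baseline (−0.13 ± 0.031), a call that ended with quantile normalization (−0.03, adjusted p = 0.474) and plain totals (−0.07, adjusted p = 0.0797).

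Lysosomal genes rose in part, with 14 higher and 4 lower of 33, where 18.7% of all tested genes were higher and 21.2% lower. Plain library totals gave 21 and 3 in the list, with 3557 of all 12789 tested genes higher and 1849 lower. CD68, a lysosomal membrane glycoprotein known best from macrophages, was at 20.3, 20.0 and 19.2 RPM at baseline and 43.5, 42.9 and 43.0 RPM combined, without overlap (1.08 ± 0.062), and the drug alone gave 1.09. The enzyme gene GUSB rose by 0.36 ± 0.042 and ATP6V0D1 of the proton pump by 0.34 ± 0.039. UNC93B1 is also in this list and holds its largest fall.

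The inhibitors of differentiation ID1, ID2 and ID3, which respond to BMP signals, fell by 0.25 ± 0.036, 0.44 ± 0.056 and 0.53 ± 0.036, as did the feedback inhibitor SMAD6 by 0.38 ± 0.108. These were 4 of 9 genes of their list, in which 0 rose, or 44.4% called, near the 40.0% of all tested genes. The call of SMAD6 ended without baseline replicate 2 (−0.26, adjusted p = 0.0675), which left 3 falls. ID2 went up with glutamine alone (0.30) and down with the drug alone (−0.58). In the BCL2 family 2 rose and 3 fell of 18, or 27.8% called against 40.0% of all tested genes. Besides PMAIP1, BIK rose by 0.60 ± 0.143 from a mean of 1.88 RPM, and BMF fell by 0.89 ± 0.154 from 2.66 RPM, levels near the limit for testing. BAD fell by 0.46 ± 0.106.

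Nucleotide synthesis genes were split, with 10 higher and 7 lower of 28 (16 and 7 with plain totals), where 40.0% of all tested genes were called. IMPDH1 and IMPDH2, which make guanine nucleotides, fell by 0.36 ± 0.034 and 0.31 ± 0.030. IMPDH2 was lower with glutamine alone (−0.26) and not called with the drug alone (0.03). PHGDH of serine synthesis rose by 0.25 ± 0.041, among 8 rises and 3 falls in 17 one-carbon genes (5 rises without baseline replicate 1 or without combined replicate 2). In polyamine metabolism 2 rose and 5 fell of 10, plain totals gave 2 and 2, and 2 or 3 fell without baseline replicate 2 or combined replicate 3. SAT1, which acetylates spermidine for export, was at 36.6, 36.5 and 37.8 RPM at baseline, 31.2, 30.6 and 31.3 RPM with glutamine alone, 37.5, 33.5 and 39.9 RPM with the drug alone and 41.4, 42.3 and 42.9 RPM combined. Glutamine alone lowered it, and the combined libraries were above all others (departure 0.43 ± 0.084, limma adjusted p = 0.00283).

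H2BC12, a replication-type histone gene whose transcripts can be polyadenylated, was at 5.98, 5.78 and 8.04 RPM at baseline, 15.5, 16.5 and 17.2 RPM with glutamine alone, 7.04, 9.06 and 5.83 RPM with the drug alone and 18.9, 14.1 and 15.9 RPM combined. The groups at 40 mM glutamine stood above those at 2 mM whether or not the drug was present (combined 1.19 ± 0.123). Histone genes share near-identical sequence, and 7 rose and 3 fell of 23 (12 rose with plain totals). That is 43.5% called, near the 40.0% of all tested genes. Among splicing factors of the SR family 8 rose and 2 fell of 15, with departures below the sum for 4 and above it for 2. SRSF2 had 0.23 and 0.40 with the single agents and 0.35 with both (departure −0.29 ± 0.049). Of the genes tied to osmotic load, 2 rose and 3 fell of 12, or 41.7% called, near the 40.0% of all genes. The taurine carrier SLC6A6 fell by 0.32 ± 0.094 and the kinase SGK1 rose by 0.20 ± 0.035. The largest rise in this list was that of AKR1B1, described above with the redox genes.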
